A study of Mus musculus with 17 samples.

Results

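Trp53, which encodes the transcription factor p53, and 34 of its known target genes were followed across mouse embryonic fibroblasts that differed in Usp28, a deubiquitinase gene. The 35 genes were listed by symbol and kept where they reached 1 RPM (reads per 1000000 reads) or more in any group. All 35 did, out of 18794 gene IDs at that level and 33440 gene IDs present in both deposited tables. The fibroblasts were derived from C57bl/6 embryos at E13.5 and were +/+, +/- or -/- at Usp28. Every group, controls included, carried a retroviral short hairpin RNA against p19ARF (pRetroSuper-shp19ARF) for immortalization. The immortalized set has 3 libraries for each genotype. In the Ras set there are 4 groups of 2 libraries: cells of the 3 genotypes that also received activated HRas and pWZL-GFP, and +/+ cells that received activated HRas and pWZL-USP28. The labels do not say whether libraries of a group came from separate embryos or cultures, so the p-values measure a spread between libraries that may be technical. Per the labels, libraries were made with either of a pair of NEBNext kits, and which library had which is not given, so kit and group cannot be told apart.

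p53 is held low in unstressed cells by Mdm2, a ubiquitin ligase that marks it for destruction, and by the related Mdm4. DNA damage or oncogene signals free p53, which then switches on genes for cell cycle arrest, DNA repair and apoptosis, and also Mdm2 itself in a feedback loop. p19ARF, the product that the hairpin targets, binds Mdm2 and is a main link from oncogenes to p53 in fibroblasts. p53 is controlled largely through its protein, which RNA data do not show.

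Both deposited tables hold the authors' comparisons with +/+ and no values for single libraries. Each level below is therefore 1 value for a group, in RPM, with no spread between replicates. Summed over its libraries, a group had 11.4 to 14.0 M reads, and a read was worth 0.0717 to 0.088 RPM. A log2 fold is the ratio in the authors' deposited tables, turned so that a positive value is higher than +/+. The standard error (SE) beside it is implied by the 1 dispersion that the authors' test used for all genes of a comparison, and is too small for genes that vary more than most. Where -/- is set directly against +/-, each group was given the sum of the dispersions of both comparisons, so that SE is larger. A gene is called where the deposited p, adjusted over all tested genes, is under 0.05. The tables were normalized apart, so levels are compared only inside the immortalized or the Ras set unless both are named.

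p53 binds many of its targets near the start of transcription. RefSeq promoter windows (GRCm38.p6, 250 bases before to 50 after a start) were found for 27 of the 35 genes. The consensus p53 decamer, searched on both strands, was in at least 1 window of 10 of these genes (37.0%), against 9.55% of all 27025 genes in the table. By window the shares were 29.7% of 37 and 8.36% of 32851. A pair of decamers with 0 to 13 bases between them, the complete site, was in 0 of the members' windows and in 0.0731% of all windows. The members' windows had a median G and C content of 61.0% against 52.7%, and a median of 21.0 CpG dinucleotides against 7.0. The 250 bases before the start are shown for Trp53 and Mdm2, the core of the loop, for Ccng1, Psrc1 and Eda2r, which were called in both immortalized comparisons, and for Btg2, whose fold differed between the sets in both genotypes. Pmaip1, also called in both immortalized comparisons, is among the genes without a window. Capitals mark the decamer.
Trp53, chr11:69580109-69580358, plus strand: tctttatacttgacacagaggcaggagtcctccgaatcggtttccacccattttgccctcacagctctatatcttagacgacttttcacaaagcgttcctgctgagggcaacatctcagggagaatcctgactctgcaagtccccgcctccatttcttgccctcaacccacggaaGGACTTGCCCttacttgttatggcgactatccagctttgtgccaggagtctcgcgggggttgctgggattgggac
Mdm2, chr10:117710759-117711008, minus strand: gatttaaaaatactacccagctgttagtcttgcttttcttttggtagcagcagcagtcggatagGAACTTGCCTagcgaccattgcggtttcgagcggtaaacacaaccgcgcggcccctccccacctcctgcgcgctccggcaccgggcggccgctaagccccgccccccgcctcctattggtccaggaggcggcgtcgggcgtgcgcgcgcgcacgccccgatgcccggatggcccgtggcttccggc
Ccng1, chr11:40755287-40755536, minus strand: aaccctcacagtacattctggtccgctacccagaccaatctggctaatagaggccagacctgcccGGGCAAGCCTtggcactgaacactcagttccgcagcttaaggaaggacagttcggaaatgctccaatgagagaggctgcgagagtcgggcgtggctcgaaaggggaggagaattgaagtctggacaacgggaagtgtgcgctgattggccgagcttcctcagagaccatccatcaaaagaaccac
Psrc1, chr3:108383554-108383803, plus strand: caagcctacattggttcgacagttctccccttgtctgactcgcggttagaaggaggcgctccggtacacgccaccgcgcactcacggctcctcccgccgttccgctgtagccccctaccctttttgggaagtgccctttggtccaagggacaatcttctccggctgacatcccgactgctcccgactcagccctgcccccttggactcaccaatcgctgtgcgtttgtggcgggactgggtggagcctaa
Eda2r, chrX:97377210-97377459, minus strand: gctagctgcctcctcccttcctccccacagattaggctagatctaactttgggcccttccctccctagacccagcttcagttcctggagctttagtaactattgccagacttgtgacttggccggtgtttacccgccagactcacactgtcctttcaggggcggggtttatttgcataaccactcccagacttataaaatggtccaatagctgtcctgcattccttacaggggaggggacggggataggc
Btg2, chr1:134079156-134079405, minus strand: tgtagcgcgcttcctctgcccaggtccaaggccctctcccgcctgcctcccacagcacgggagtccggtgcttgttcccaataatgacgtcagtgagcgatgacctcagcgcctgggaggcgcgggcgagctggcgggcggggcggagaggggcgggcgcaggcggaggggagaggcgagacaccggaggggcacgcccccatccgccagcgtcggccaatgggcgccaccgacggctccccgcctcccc

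Counted from the start of transcription, the decamer began 75 bases upstream in Trp53, 186 in Mdm2 and 185 in Ccng1. The best known p53 site of Mdm2 lies in its first intron, outside this window. The windows of Psrc1, Eda2r and Btg2 held no decamer, which says only that these letters are not in them.

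Trp53 (ENSMUSG00000059552, chr11:69580359-69591873, plus strand, GRCm38) was expressed in every group. Its level was 114 RPM in immortalized +/+, 125 RPM in +/- and 141 RPM in -/- cells. Among Ras cells it was 154 RPM in +/+, 228 RPM in +/-, 136 RPM in -/- and 166 RPM with USP28. The +/- cells stood above the other 3 Ras groups, and the immortalized groups lay within 1.24-fold of each other. The rise in Ras +/- was called (log2 fold 0.57, SE 0.21, adjusted p = 0.0225). The folds of Ras -/- (-0.17, SE 0.21), immortalized -/- (0.31, SE 0.25) and immortalized +/- (0.13, SE 0.39) were not. Set directly against Ras +/- cells, Ras -/- cells were lower (-0.74, SE 0.30, adjusted p = 0.0494), a call that was lost at a minimum of 5 RPM (adjusted p = 0.0506), with centred folds (0.0556), without a filter on level (0.0972) and with a doubled dispersion (0.279).

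Mdm2 (chr10:117688875-117710758, minus strand, GRCm38) read 63.1 RPM in immortalized +/+, 110 RPM in +/- and 83.8 RPM in -/- cells. In the Ras set it read 132 RPM in +/+, 181 RPM in +/-, 201 RPM in -/- and 125 RPM with USP28. In both sets the +/+ group lay below +/- and -/-. Of the 5 comparisons with +/+ the Ras -/- fold was called (0.61, SE 0.21, adjusted p = 0.0188), and those of immortalized -/- (0.41, SE 0.26), immortalized +/- (0.81, SE 0.39), Ras +/- (0.45, SE 0.21) and USP28 (-0.08, SE 0.19) were not. Mdm4, which binds p53 and blocks its activity, had 22.6, 32.6 and 38.9 RPM in immortalized +/+, +/- and -/- cells and 56.3 to 65.2 RPM in the Ras groups. Its fold in immortalized -/- cells was not called (0.78, SE 0.27, adjusted p = 0.0757). Ppm1d, which encodes the phosphatase Wip1 that dampens p53 signalling, lay between 9.35 and 10.3 RPM in the immortalized set. It was called higher in Ras +/- cells (13.6 to 20.8 RPM, 0.61, SE 0.25, adjusted p = 0.0453), but not by the authors' own adjusted p (0.096). Per kilobase of exon, Trp53 was the most abundant of these 4 genes in 6 of the 7 groups, at 28.2 to 56.5 RPM per kb. In Ras -/- cells Mdm2 was (39.6 against 33.7 RPM per kb).

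**Figure D1:**
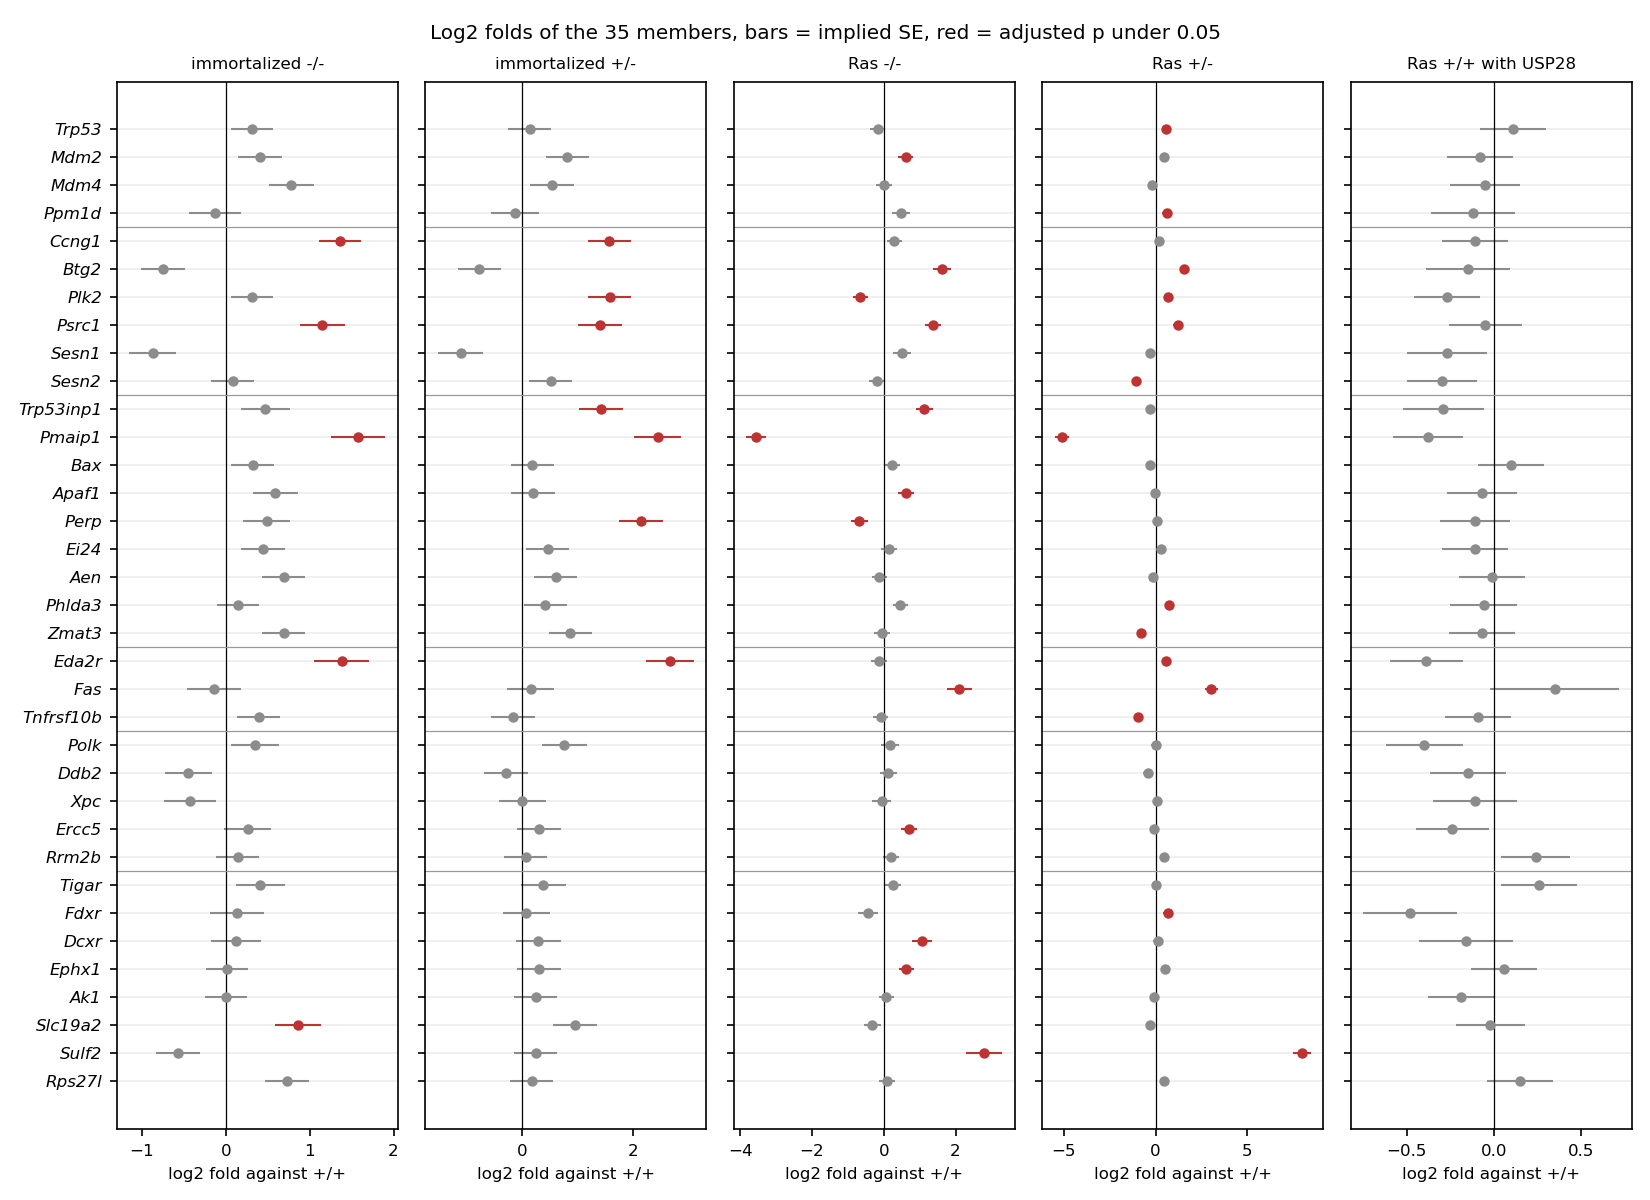
Log2 fold against +/+ (horizontal axis, scaled separately in each panel) of each of the 35 genes in the 5 comparisons, with lines between roles; points are folds, bars the implied SE, and red marks an adjusted p under 0.05. The calls lie above 0 in both immortalized panels (5 and 7 genes) and on both sides of 0 in the Ras -/- and +/- panels, and the USP28 panel has none and lacks Sulf2, which was not tested there.

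The first comparison, of immortalized -/- with +/+ cells, addresses the loss of Usp28 without oncogenic Ras. Of the 35 genes 5 were called, all higher: Ccng1, Psrc1, Pmaip1, Eda2r and Slc19a2. That is 14.3% of the members, where 1.29% of 16727 tested genes were called higher, 2.93% lower and 4.21% either way. The members were chosen with earlier results of these data known, so shares of members called here and below are not independent of the data. In a further list of p53 targets, 1 of 33 tested genes was called higher and 2 lower in this comparison (median log2 fold 0.09). The median log2 fold of the members was 0.32, with 27 above 0 and 8 below. For all tested genes the median was 0.07, with 57.2% above 0.

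Ccng1, which encodes cyclin G1, rose from 112 to 287 RPM (1.36, SE 0.25, adjusted p = 1.27e-05). Psrc1, whose product binds microtubules of the mitotic spindle, rose from 20 to 44.4 RPM (1.15, SE 0.27, adjusted p = 0.00146). Pmaip1, which encodes the death protein Noxa, rose from 5.42 to 16.2 RPM (1.58, SE 0.32, adjusted p = 7.48e-05). Eda2r, a receptor of the tumour necrosis factor receptor family that binds ectodysplasin A2, rose from 5.36 to 13.9 RPM (1.38, SE 0.33, adjusted p = 0.00122). Slc19a2, a thiamine transporter gene, had the highest adjusted p of the 5 (21.3 to 38.5 RPM, 0.86, SE 0.27, adjusted p = 0.0423). Its call was lost with folds centred on the median gene (adjusted p = 0.0781), without a filter on level (adjusted p = 0.0914) and with a doubled dispersion (adjusted p = 0.444). By role, 2 of 6 cell cycle and growth genes, 1 of 9 apoptosis genes, 1 of 3 death receptors, 1 of 8 metabolic and other genes and 0 of 5 DNA repair and nucleotide supply genes were called.

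Some members had folds below 0. Sesn1, which encodes a sestrin that restrains mTORC1, read 26.6 to 14.6 RPM from +/+ to -/- (-0.87, SE 0.28, adjusted p = 0.0527). Btg2, an antiproliferative gene that is also an immediate-early gene, read 101 to 59.9 RPM (-0.75, SE 0.26, adjusted p = 0.0759). Neither was called, and both were with centred folds (adjusted p = 0.0289 for Sesn1 and 0.0422 for Btg2). Sulf2 (-0.57, SE 0.26), Ddb2 (-0.45, SE 0.28) and Xpc (-0.43, SE 0.31) were not called. With a doubled dispersion 2 members were called, Ccng1 and Pmaip1.

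The comparison of immortalized +/- with +/+ cells uses the same +/+ libraries and addresses the loss of 1 allele. Here 7 of the 35 genes were called, all higher: Ccng1, Plk2, Psrc1, Trp53inp1, Pmaip1, Perp and Eda2r. This is 20% of the members, beside 5.04% of 17035 tested genes called higher, 3.21% lower and 8.25% either way. The median log2 fold was 0.30 for the members, with 30 above 0, and 0.00 for all tested genes, with 49.8% above 0.

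Eda2r had the largest fold of the members, from 5.32 to 33.9 RPM (2.67, SE 0.43, adjusted p = 6.05e-08), and Pmaip1 the next, from 5.40 to 29.5 RPM (2.45, SE 0.43, adjusted p = 8.77e-07). Perp, which encodes a membrane protein of epithelial desmosomes, rose from 17.4 to 77.2 RPM (2.15, SE 0.40, adjusted p = 5.78e-06). Plk2, a kinase of centriole duplication, rose from 123 to 368 RPM (1.58, SE 0.39, adjusted p = 0.00109). Trp53inp1, a stress-induced regulator of autophagy and cell death, rose from 15.3 to 41.0 RPM (1.42, SE 0.40, adjusted p = 0.00725). Ccng1 rose from 111 to 331 RPM (1.57, SE 0.39, adjusted p = 0.0012) and Psrc1 from 19.9 to 52.6 RPM (1.40, SE 0.40, adjusted p = 0.00763). The most negative folds were those of Sesn1 (26.7 to 12.3 RPM, -1.12, SE 0.41, adjusted p = 0.0684) and Btg2 (101 to 58.4 RPM, -0.78, SE 0.39, adjusted p = 0.314), neither called. When the dispersion was doubled, Pmaip1, Perp and Eda2r were called and the other 4 were not.

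Markers of other cell types differed between these groups. The 6 mesothelial markers summed to 23.8 RPM in +/+, 1640 RPM in +/- and 15.0 RPM in -/- cells, with Lrrn4 at 0 in +/+, and 6 of 6 were called higher in +/-. The 7 epithelial markers summed to 6.03, 263 and 1.5 RPM in the same order, with Epcam and Cldn4 at 0 in +/+, Krt5 at 0 in +/- and Krt5 and Cldn4 at 0 in -/-. The +/- sum was mostly Krt14 (146 RPM), Krt8 (71.8 RPM) and Krt18 (39.0 RPM), while Cdh1 read 5.73 RPM, beside 5.22 RPM in +/+. Of 5 sex-linked genes 1 was called higher and 4 lower in +/-, and 0 in -/-. In +/+, +/- and -/- cells Xist read 89.7, 296 and 126 RPM, and Eif2s3y 18.6, 0 and 14.9 RPM. The sex or line of the cells and the genotype cannot be told apart, and Eda2r lies on the X chromosome. The 15 G2/M genes had a median log2 fold of -0.77 in +/- (0 called) and of 0.62 in -/- (3 called higher). The part of these differences in the members' levels was not tested. In bulk RNA, fewer cells of a type and less RNA per cell cannot be told apart.

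The -/- and +/- immortalized cells were also set against each other, by a Wald test on the difference of their folds. Of the 35 genes 1 was called, Perp (24.4 against 77.2 RPM, -1.66, SE 0.47, adjusted p = 0.0115), which is 2.86%, beside 4.63% of 17007 tested genes (1.35% higher, 3.28% lower). That call was lost with a doubled dispersion (adjusted p = 0.272). The intervals of the others were wide, in part because each group was given the sum of the dispersions of both comparisons. For Eda2r (13.9 against 33.9 RPM) the 95% interval of the log2 difference was -2.22 to -0.35 (adjusted p = 0.114). For Plk2 it was -2.17 to -0.37 (adjusted p = 0.0997) and for Trp53inp1 -1.86 to -0.02 (adjusted p = 0.441).

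**Figure D2:**
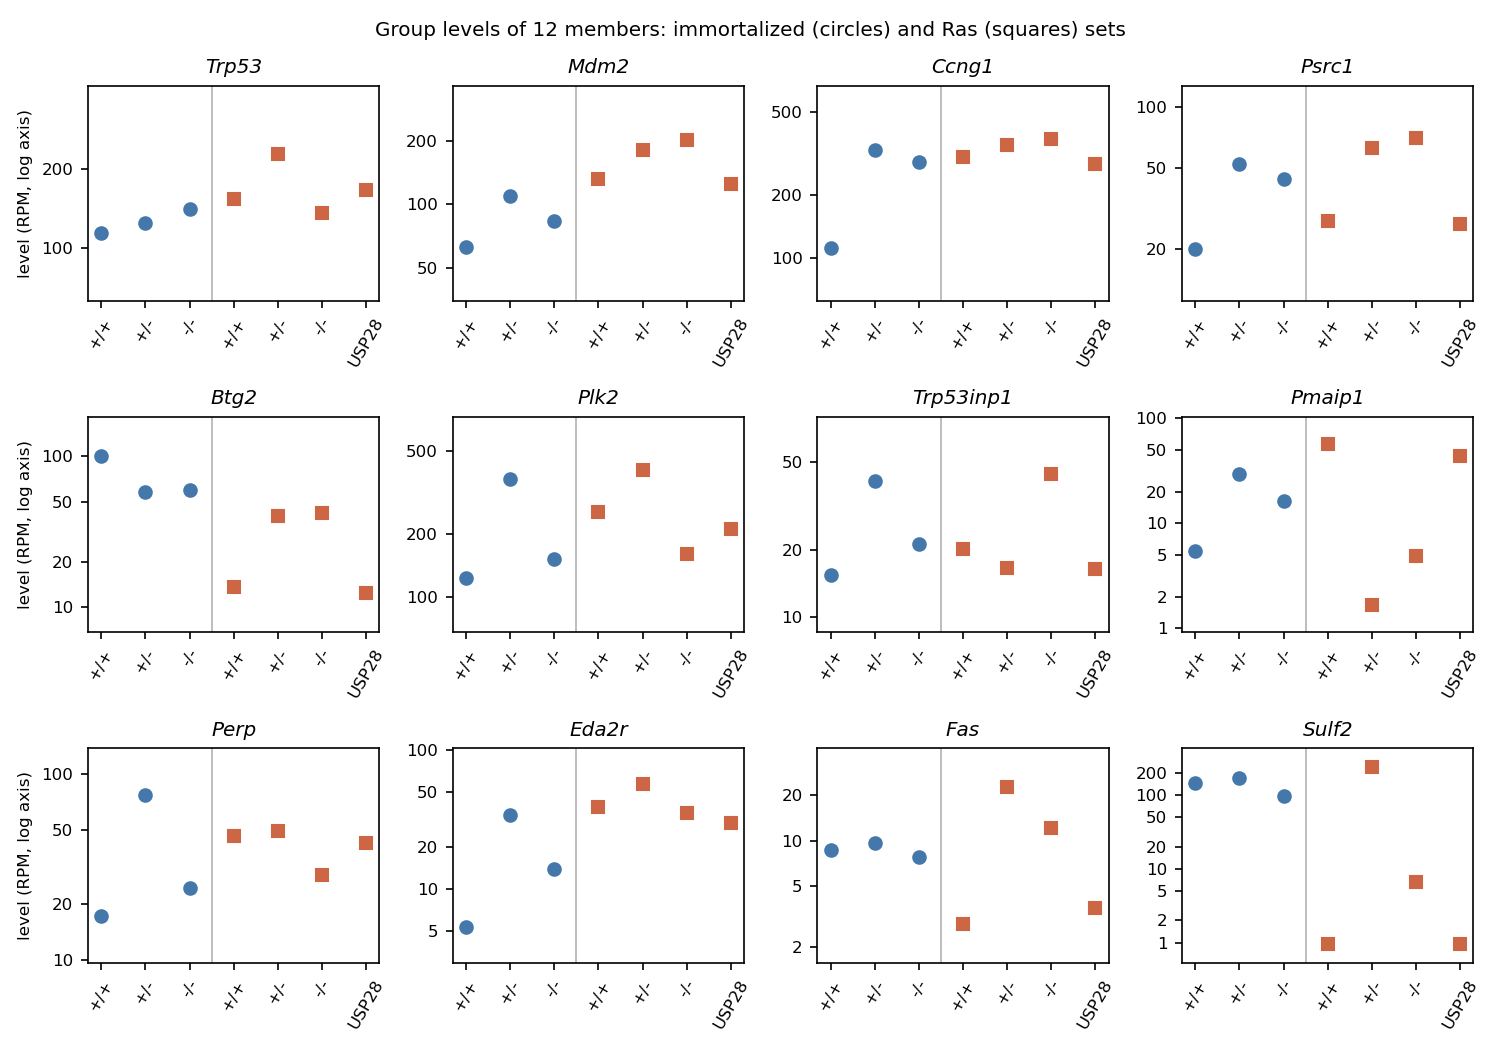
Level of 12 of the 35 genes in RPM (vertical log axis, scaled separately in each panel) in the 3 immortalized groups (circles) and the 4 Ras groups (squares); each point is 1 value for a group and has no error bar. In the immortalized set the +/+ point is lowest for Trp53, Mdm2, Ccng1, Psrc1, Plk2, Trp53inp1, Pmaip1, Perp and Eda2r and highest for Btg2. In the Ras set Pmaip1 is at 57.2 RPM in +/+ and 1.66 RPM in +/-.

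In Ras cells the comparison of -/- with +/+ addresses the loss of Usp28 after transformation. Of the 35 genes 10 were called higher and 3 lower, 37.1% of the members. The background was high, with 27.6% of 15868 tested genes called, 15.2% higher and 12.4% lower. The members' median log2 fold was 0.17, against -0.01 for all tested genes, and 23 of 35 lay above 0, beside 49.5% of all tested genes.

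Pmaip1 fell from 57.2 to 4.88 RPM (-3.55, SE 0.28, adjusted p = 9.16e-37). Sulf2, a heparan sulfatase gene (chr2:166073089-166155663, minus strand, GRCm38), rose from 0.96 to 6.67 RPM (2.80, SE 0.50, adjusted p = 1.64e-09). Its +/+ level rests on 11 reads, with an exact 95% Poisson interval of 0.483 to 1.73 RPM that covers counting error only. Fas, the receptor of the Fas ligand (chr19:34290666-34327772, plus strand, GRCm38), rose from 2.81 to 12.2 RPM (2.11, SE 0.35, adjusted p = 3.88e-09), with 32 reads behind the +/+ level. Btg2 rose from 13.7 to 42.3 RPM (1.62, SE 0.25, adjusted p = 4.81e-10). Psrc1 rose from 27.5 to 70.8 RPM (1.37, SE 0.23, adjusted p = 3.69e-08) and Trp53inp1 from 20.2 to 44.2 RPM (1.13, SE 0.24, adjusted p = 1.64e-05).

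Smaller rises were those of Dcxr, a xylulose reductase gene (9.19 to 19.2 RPM, 1.06, SE 0.27, adjusted p = 0.00056), and of Ercc5, an endonuclease gene of nucleotide excision repair (30.1 to 49.0 RPM, 0.70, SE 0.23, adjusted p = 0.0101). The epoxide hydrolase gene Ephx1 (101 to 156 RPM, 0.63, SE 0.21, adjusted p = 0.0161), Apaf1, the core of the apoptosome (46.5 to 71.1 RPM, 0.61, SE 0.22, adjusted p = 0.0244), and Mdm2 also rose. Perp (46.3 to 28.8 RPM, -0.68, SE 0.23, adjusted p = 0.0138) and Plk2 (255 to 161 RPM, -0.66, SE 0.21, adjusted p = 0.00888) fell. By role, the 9 apoptosis genes split into 2 higher and 2 lower, and 1 of 5 DNA repair and nucleotide supply genes was called. Apaf1 was not called by the authors' own adjusted p (0.0526), and with a doubled dispersion 6 members were called higher and 1 lower.

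The comparison of Ras +/- with +/+ cells had 14 of 35 genes called, 10 higher and 4 lower. This is 40.0%, beside 34.1% of 15950 tested genes (17.5% higher, 16.7% lower). The median log2 fold was 0.10 for the members, with 21 above 0, and 0.01 for all tested genes, with 50.7% above 0. The +/+ libraries are those of the comparison above.

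Sulf2 rose from 0.96 to 240 RPM (7.97, SE 0.47, adjusted p = 9.42e-114). Pmaip1 fell from 57.2 to 1.66 RPM (-5.11, SE 0.37, adjusted p = 2.15e-55), with 22 reads in +/- (exact 95% Poisson interval 1.04 to 2.52 RPM). Fas rose from 2.81 to 22.9 RPM (3.03, SE 0.34, adjusted p = 1.32e-20), Btg2 from 13.7 to 40.0 RPM (1.54, SE 0.24, adjusted p = 2.14e-09) and Psrc1 from 27.5 to 63.1 RPM (1.20, SE 0.23, adjusted p = 1.04e-06). Phlda3, whose product competes with Akt for membrane lipids, rose from 113 to 189 RPM (0.74, SE 0.21, adjusted p = 0.00216), and Plk2 from 255 to 404 RPM (0.66, SE 0.21, adjusted p = 0.00582).

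Sesn2, another sestrin gene, fell from 69.4 to 32.8 RPM (-1.08, SE 0.22, adjusted p = 1.05e-05). Tnfrsf10b, a receptor for the death ligand TRAIL, fell from 76.9 to 39.7 RPM (-0.95, SE 0.22, adjusted p = 0.000101), and Zmat3, an RNA-binding zinc finger gene, from 172 to 97.9 RPM (-0.81, SE 0.21, adjusted p = 0.000672). Eda2r (0.56, SE 0.22, adjusted p = 0.0363), Fdxr, a mitochondrial ferredoxin reductase gene (10.1 to 15.9 RPM, 0.66, SE 0.27, adjusted p = 0.0459), and Ppm1d were called higher. These 3 were not called by the authors' own adjusted p (0.0769, 0.0974 and 0.096) nor without a filter on level. With a doubled dispersion 4 members were called higher and 4 lower.

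Set against each other, Ras -/- and +/- cells differed in 13 of the 35 genes, 7 higher and 6 lower in -/-. This is 37.1%, beside 24.5% of 16107 tested genes (12.8% higher, 11.7% lower). Sulf2 was lower in -/- (6.67 against 240 RPM, -5.16, SE 0.33), as were Plk2 (161 against 404 RPM, -1.33, SE 0.30), Fdxr (-1.09, SE 0.34), Fas (-0.91, SE 0.32), Perp (-0.78, SE 0.31) and Trp53. Pmaip1 (4.88 against 1.66 RPM, 1.53, SE 0.46) and Trp53inp1 (44.2 against 16.6 RPM, 1.41, SE 0.31) were higher in -/-. So were Dcxr (0.93, SE 0.33), Sesn2 (0.89, SE 0.30), Tnfrsf10b (0.86, SE 0.30), Ercc5 (0.80, SE 0.31) and Zmat3 (0.76, SE 0.30). Perp, Zmat3 and Ercc5 were not called without a filter on level (adjusted p = 0.0935, 0.0891 and 0.0784), and 4 of the 13 were with a doubled dispersion.

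Marker lists differed between the Ras groups too. The 12 interferon response genes summed to 70.7 RPM in +/+, 33.9 in +/-, 968 in -/- and 96.4 RPM with USP28. In -/- 12 of 12 were called higher, and in +/- 7 of 8 lower. Epithelial markers summed to 1.06, 986, 1.72 and 1.27 RPM in the same order, with Cldn4 at 0 in all 4 groups, Krt18 at 0 in +/+ and Epcam at 0 with USP28. The +/- sum was mostly the keratins Krt8 (465 RPM), Krt14 (316 RPM) and Krt18 (202 RPM). In the same cells Cdh1 read 2.65, Krt5 0.227 and Epcam 0.0757 RPM. Mesothelial markers summed to 425 RPM in +/+, 1670 in +/-, 6.59 in -/- and 467 with USP28. Lrrn4 was at 0 in all but +/- and Bnc1 at 0 in -/-. Most of the sum outside +/- was Msln alone (425 RPM in +/+, 5.09 in -/- and 466 with USP28). In +/- cells 5 of 6 mesothelial markers were called higher and 1 lower, Msln (425 to 209 RPM). Of 5 sex-linked genes 4 were called higher and 1 lower in -/-, and 1 of 2 tested was lower in +/-, Xist (336 to 25.5 RPM). In -/- cells Xist read 0.215 RPM, and Eif2s3y read 22.4 RPM against 0 in +/+. Here too the sex or line of the cells and the genotype cannot be told apart. Of the 15 G2/M genes 4 were called higher in -/- (median log2 fold 0.22), and 1 higher and 1 lower in +/- (median -0.12). The 9 fibroblast markers summed to 37100 to 45600 RPM in the immortalized groups and to 10200 to 18000 RPM in the Ras groups, where Thy1, a fibroblast surface marker, was at 0.502 RPM or less. Over all 7 groups the endothelial markers summed to 4.09 to 19.4 RPM, the leukocyte markers to 13.1 to 25.2 RPM and the neural markers to 62.1 to 206 RPM. The part of these differences in the levels of the members was not tested.

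In Ras +/+ cells that received pWZL-USP28, 0 of 34 tested members were called by the authors' edgeR test, and 0 had an unadjusted p under 0.05. The Usp28 gene itself read 26.5 RPM without and 26.4 RPM with USP28, so its level does not show the overexpression. Among 15444 tested genes 1.09% were called, 0.0907% higher and 0.997% lower. The members' median log2 fold was -0.11, with 27 below 0 and 7 above, and their median SE was 0.20. For all tested genes the median was 0.01, with 52.6% above 0. Fdxr (-0.48, SE 0.27), Polk, a translesion DNA polymerase gene (26.5 to 20 RPM, -0.40, SE 0.22), Eda2r (-0.39, SE 0.21) and Pmaip1 (57.2 to 43.9 RPM, -0.38, SE 0.20) had the most negative folds. Sulf2 was not tested because its mean was under 1 RPM. Fas (0.35, SE 0.37) had 2.81 RPM without and 3.58 RPM with USP28, Btg2 (-0.15, SE 0.24) 13.7 and 12.4 RPM, and Psrc1 (-0.05, SE 0.21) 27.5 and 26.5 RPM.

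**Figure D3:**
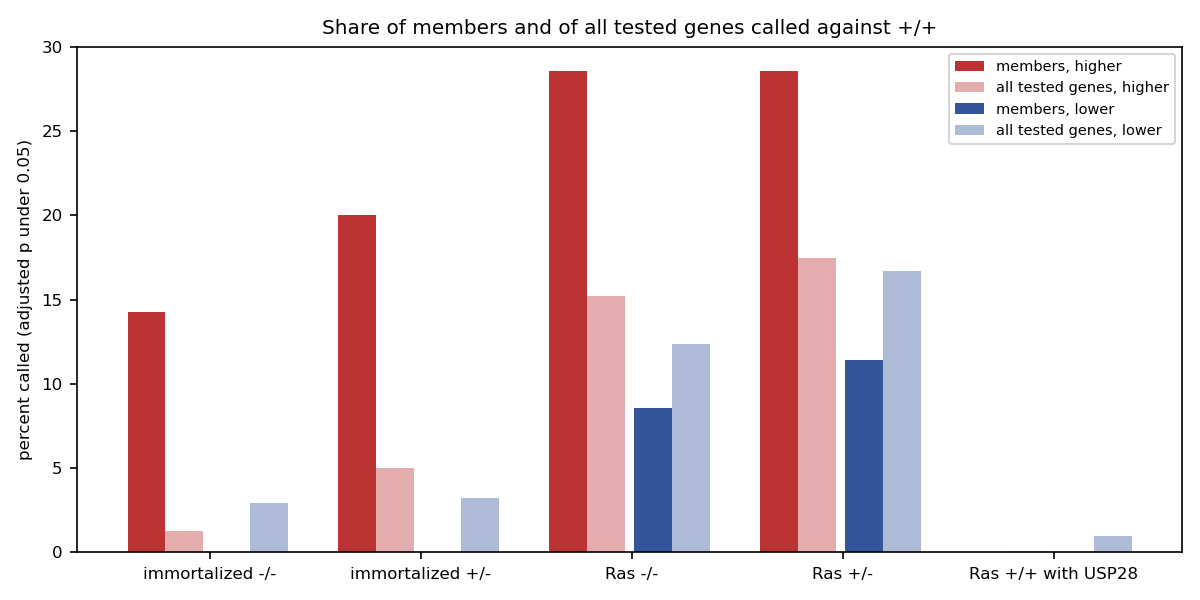
Percent of the 35 genes (34 with USP28, dark bars) and of all tested genes (pale bars) with an adjusted p under 0.05 in each comparison with +/+, higher in red and lower in blue. In immortalized -/- cells 14.3% of members and 1.29% of tested genes were called higher, and with USP28 no member was called.

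Whether the genotype folds differ between the sets was tested as the difference of the log2 folds, Ras minus immortalized, with 0.5 reads added to each group. The +/+ cells that serve as reference also differed between the sets. In immortalized and Ras +/+ cells Xist read 89.7 and 336 RPM, Eif2s3y 18.6 and 0 RPM, and Thy1 199 and 0.0878 RPM. Among members, Pmaip1 read 5.42 and 57.2 RPM there and Sulf2 145 and 0.96 RPM. Ras and the sex or line of the cells therefore cannot be told apart in these differences. For -/- the difference was called for 10 of 35 genes, 4 higher and 6 lower in Ras. This is 28.6%, beside 20.6% of 15068 tested genes (11.4% higher, 9.2% lower). Pmaip1 had folds of 1.57 and -3.54 in immortalized and Ras cells (difference -5.11, SE 0.43). The folds of Btg2 were -0.75 and 1.62 (difference 2.37, SE 0.36), those of Fas -0.14 and 2.10 (difference 2.24, SE 0.47) and those of Sulf2 -0.57 and 2.74 (difference 3.31, SE 0.56). Each of these 4 genes had folds of opposite sign in the sets, but in immortalized -/- cells only the Pmaip1 fold was called. The immortalized -/- folds of Btg2, Fas and Sulf2 were not called by the edgeR test (adjusted p = 0.0759, 0.934 and 0.238). Ccng1 (1.36 and 0.29, difference -1.07, SE 0.33) and Eda2r (1.37 and -0.14, difference -1.51, SE 0.40) had lower folds in Ras cells. The folds of Psrc1 were 1.15 and 1.36, and the 95% interval of their difference was -0.48 to 0.92 (adjusted p = 0.731).

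For +/- the difference was also called for 10 genes, 3 higher and 7 lower. This is 28.6%, beside 13.1% of 15211 tested genes (6.8% higher, 6.34% lower). Pmaip1 had folds of 2.44 and -5.08 (difference -7.52, SE 0.57) and Sulf2 of 0.24 and 7.90 (difference 7.66, SE 0.61). Lower folds in Ras cells were also those of Eda2r (-2.10, SE 0.48), Perp (-2.06, SE 0.46), Trp53inp1 (-1.70, SE 0.47), Zmat3 (-1.68, SE 0.44), Sesn2 (-1.59, SE 0.45) and Ccng1 (-1.37, SE 0.44). With a doubled dispersion 6 of the 10 were called for each genotype. No difference was called for Trp53, Mdm2, Mdm4 or Ppm1d in either genotype, nor for any of the 5 DNA repair and nucleotide supply genes.

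**Figure D4:**
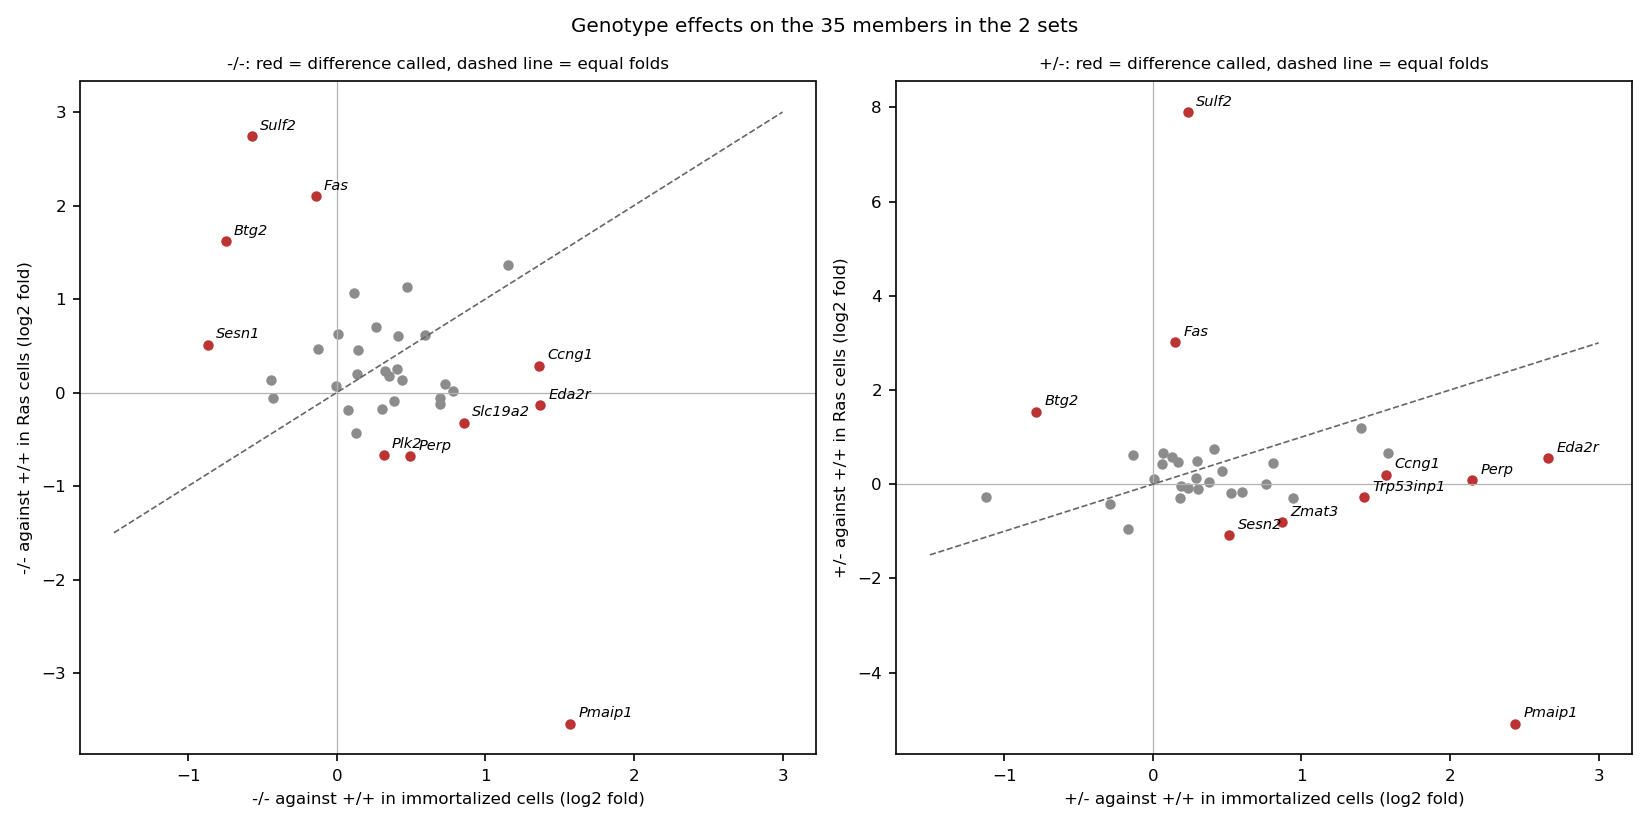
Log2 fold against +/+ in Ras cells (vertical axis) and in immortalized cells (horizontal axis) for the 35 genes, -/- on the left and +/- on the right, each point a gene and the dashed line equal folds. The 10 red points in each panel are genes whose difference was called, with Pmaip1 far below the line (differences of -5.11 and -7.52) and Sulf2 far above it (3.31 and 7.66).

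The remaining 11 members were not called in any of the 9 tests. The share of all tested genes called in none of them is not given here. Not called does not mean unchanged. In immortalized -/- cells the folds of these members ran from -0.45 (Ddb2, SE 0.28) to 0.78 (Mdm4, SE 0.27), with Rps27l at 0.73 (SE 0.26). Bax, the pore former of the mitochondrial death pathway, lay between 91.5 and 132 RPM over all 7 groups, and Ak1, an adenylate kinase gene, between 131 and 174 RPM. Rrm2b, a subunit of ribonucleotide reductase, lay between 46.6 and 64.6 RPM. Xpc (9.58 to 14.3 RPM) and Ddb2 (15.7 to 23.1 RPM), both of which recognise DNA lesions, Polk (14.6 to 29.8 RPM) and Tigar, a fructose bisphosphatase gene (15.8 to 24.1 RPM), were also among them. Aen, a nuclease gene of apoptosis (62.7 to 138 RPM), Ei24, which encodes a protein of the endoplasmic reticulum (44.0 to 112 RPM), Rps27l, a ribosomal protein gene (40.1 to 109 RPM), and Mdm4 make up the rest. Counting by strand is not stated, so reads of the 23.8% of Ddb2 exon bases that overlap Acp2 on the opposite strand cannot be told apart. The same holds for 8.04% of Rrm2b (Gm49085), 6.66% of Ei24 (Gm26787), 3.34% of Tigar (Platr31) and 2.62% of Sulf2 (Ncoa3). Bax shares 12.2% and Ephx1 3.69% of exon bases with a gene on the same strand (Gm45808 and Gm36961).

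A further list holds 22 upstream regulators and partners of p53. In immortalized -/- cells 1 of 20 tested rose, Atm, the kinase that signals DNA breaks to p53 (12.9 to 25.4 RPM, 0.98, SE 0.29, adjusted p = 0.0182). In immortalized +/- cells 1 of 20 rose, Trp53bp2, a p53-binding protein gene (28.9 to 63.8 RPM, 1.14, SE 0.39, adjusted p = 0.047). Over all tested genes 4.21% were called either way in immortalized -/- and 8.25% in +/-, so both counts lay near the background. In the Ras set 1 rose and 4 fell of 21 in -/-, and 3 rose and 4 fell of 20 in +/-. These counts lay near the background of 27.6% and 34.1% called either way. Ppp1r13b, which encodes the p53 partner ASPP1, rose in -/- (3.55 to 16.8 RPM, 2.25, SE 0.32) and in +/- (3.55 to 48.0 RPM, 3.76, SE 0.31). Hipk2, a kinase that phosphorylates p53, fell in -/- (60 to 29.7 RPM, -1.01, SE 0.23, adjusted p = 7.52e-05), as did Trim24 (66.1 to 36.9 RPM, -0.84, SE 0.22). Twist1 fell in +/- (37.6 to 19.5 RPM, -0.94, SE 0.24). With USP28 0 of 21 were called.

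Cdkn2a is the locus of p19ARF and of the CDK inhibitor p16, and a gene-level value does not separate them. It read 119, 221 and 117 RPM in immortalized +/+, +/- and -/- cells. In the Ras set it read 12.9 RPM in +/+, 12.7 in -/- and 12.8 with USP28, but 56.8 RPM in +/- (2.13, SE 0.24, adjusted p = 7.75e-17). Usp28, the targeted gene, fell in Ras -/- (26.5 to 14.8 RPM, -0.83, SE 0.25, adjusted p = 0.00397). It was not called in immortalized -/- (16.5 to 13.3 RPM, -0.32, SE 0.29, adjusted p = 0.732), immortalized +/- (16.5 to 9.96 RPM, -0.73, SE 0.42), Ras +/- (26.5 to 18.6 RPM, -0.51, SE 0.24) or with USP28 (26.5 to 26.4 RPM). The part of the gene that was deleted is not given in the sources used here, nor whether reads of the pWZL-USP28 construct were counted. These levels therefore do not check the labels.

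Of 35 other p53 targets, 33 were tested in immortalized -/-, with 1 higher and 2 lower and a median log2 fold of 0.09. In immortalized +/- 7 rose and 2 fell of 32 (median 0.35). In the Ras set 11 rose and 4 fell of 30 in -/- (median 0.40), 11 rose and 6 fell of 30 in +/- (median 0.32), and 1 of 28 fell with USP28. Over all tested genes 15.2% were called higher and 12.4% lower in Ras -/-, and 17.5% and 16.7% in Ras +/-, so the numbers that fell lay near the background. In the immortalized set those shares were 1.29% and 2.93% in -/-, and 5.04% and 3.21% in +/-. Cdkn1a, which encodes the CDK inhibitor p21 and was named after its values were seen, had 119, 394 and 183 RPM in immortalized +/+, +/- and -/- cells and 147 to 177 RPM in the Ras groups. It was called higher in immortalized +/- (1.72, SE 0.39, adjusted p = 0.000281) and not in immortalized -/- (0.61, SE 0.25, adjusted p = 0.183). In immortalized -/- cells the called genes were Arap2, an Arf GTPase-activating protein gene, which rose (0.647 to 4.35 RPM, 2.75, SE 0.59, adjusted p = 3.35e-05), and Pltp (145 to 33.1 RPM, -2.13, SE 0.26, adjusted p = 1.58e-12) and Steap3 (117 to 63.4 RPM, -0.88, SE 0.26, adjusted p = 0.021), which fell. In immortalized +/- cells the largest folds were those of Dusp4 (2.01 to 47.4 RPM, 4.56, SE 0.48), Arap2 (0.643 to 8.73 RPM, 3.76, SE 0.64) and Steap3 (117 to 13.4 RPM, -3.12, SE 0.40).

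Several of the largest folds among Ras cells rested on few reads in +/+, and for these the ratio is given with its exact 95% counting interval. In -/- cells Trp53cor1, the gene of lincRNA-p21, had 1 read in +/+ and 39 in -/- (ratio 31.8, interval 5.38 to 1287). Def6 had 3 and 50 reads (ratio 13.6, interval 4.39 to 68.1), and Tgfa, a growth factor gene, 5 and 92 (ratio 15.0, interval 6.2 to 47.3). In +/- cells Arap2 had 2 reads in +/+ and 351 in +/- (ratio 151, interval 41.4 to 1250), and Tgfa 5 and 202 (ratio 34.7, interval 14.6 to 108). Crip2 rose in +/- (4.20 to 176 RPM, 5.39, SE 0.29), and Cd82 fell with USP28 (15.9 to 7.38 RPM, -1.11, SE 0.26, adjusted p = 0.00153).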

How the data were processed

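The submitters' processing notes name CASAVA, FastQC, Bowtie 0.12.8, the mm9 build and edgeR, for 17 RNA-seq libraries. Counting and annotation are not given in the sources used here. The authors deposited log2 concentrations, log2 ratios and p-values for each comparison, per the file headers. The sign of the ratios was checked: read with +/+ as the numerator and turned here, the +/+ levels of comparisons in 1 table differed by a median of 0.00091 (log2) or less. Levels were rebuilt from concentration and ratio, and depth from their steps of 1 read. The common dispersion was fitted to the deposited p-values (coefficients of variation 12.7% to 32.5%) and gives the standard errors. Genes with a mean of 1 RPM or more were tested, adjusting the authors' edgeR p by Benjamini and Hochberg's method. Direct contrasts and differences between sets used an approximate Wald test with 0.5 reads added. In direct contrasts each group had the summed dispersions of both comparisons, which widens the SE. The members and lists were chosen with earlier results of these data known. All 35 members are named, and of the other p53 lists up to 3 called genes with the largest folds in a comparison. In simulated data of the immortalized -/- comparison (16727 genes), 42.0% of changes of 1 and 94.0% of changes of 2 on the log2 scale were recovered. For immortalized +/- (17035 genes) these were 7.0% and 73.0%. Counting intervals cover counting error only. Alternatives were no filter, 5 RPM, a threshold of 0.01, centring, a doubled dispersion, 1 read added and the authors' adjusted p. Python 3.11.15 and scipy 1.17.1 were used. Gene positions and symbols come from GENCODE M21 (GRCm38).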

Additional observations from a re-analysis of the deposited data

Results flagged for a closer look

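Genes of the p53 list had genotype folds that differed between the Ras and the immortalized set by the Wald test on the difference itself (adjusted p under 0.05), 10 in each genotype. This is 28.6% of the members each time, beside 20.6% of 15068 tested genes for -/- and 13.1% of 15211 for +/-. For -/- the differences on the log2 scale, Ras minus immortalized, were -1.07 for Ccng1, 2.37 for Btg2, -0.98 for Plk2, 1.38 for Sesn1, -5.11 for Pmaip1, -1.18 for Perp, -1.51 for Eda2r, 2.24 for Fas, -1.18 for Slc19a2 and 3.31 for Sulf2. For +/- they were -1.37 for Ccng1, 2.32 for Btg2, -1.59 for Sesn2, -1.70 for Trp53inp1, -7.52 for Pmaip1, -2.06 for Perp, -1.68 for Zmat3, -2.10 for Eda2r, 2.85 for Fas and 7.66 for Sulf2. The genotypes share the +/+ libraries of each set, and the sets were normalized apart. The +/+ cells of the sets differed in sex-linked genes, so Ras and the sex or line of the cells cannot be told apart.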

How the results depend on the processing

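No paired analysis was possible because the deposited tables hold no values for single libraries, and for the same reason leaving out each replicate was not run. With a doubled dispersion the number of members called was 2 in immortalized -/-, 3 in immortalized +/-, 7 in Ras -/-, 8 in Ras +/-, 0 for immortalized -/- against +/-, 4 for Ras -/- against +/-, and 6 for each difference between the sets. In the same order, all genes called were 282 of 16727 tested, 813 of 17035, 2643 of 15868, 3664 of 15950, 377 of 17007 and 2424 of 16107. For the differences they were 1675 of 15068 (-/-) and 1040 of 15211 (+/-). At an adjusted p under 0.01 the number of members called was 8 in Ras -/-, 5 for Ras -/- against +/- and 0 for immortalized -/- against +/-. The genes called among all tested were then 3108, 2796 and 550. Under the other alternatives run, each count of members called lay within 1.5 times the value reported. No called member changed sign under an alternative. The +/+ level of a member differed by at most 0.011 (log2) between comparisons of a table. Of the 5 comparisons with +/+, calls of small folds were most limited in immortalized +/-, where the median implied SE of the members was 0.40. It was 0.46 for immortalized -/- against +/-, where dispersions were summed, and for the +/- difference between the sets.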
